A study of Mus musculus with 9 samples.

Results

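The Slitrk genes encode a family of neuronal membrane proteins, and their transcripts were compared here between 3 regions of the mouse optic cup. The 6 members, Slitrk1 to Slitrk6, were taken as the probe sets whose only symbol in the array's annotation is a Slitrk gene, which gave 8 probe sets for 6 genes out of 18193 genes with a probe set. The probe set of a gene was chosen by its mean intensity over the 9 arrays, the brightest being taken, and Slitrk2 and Slitrk4 have 1 further probe set each. Slitrk1 was among the genes with the largest difference between the fissure and the other regions in earlier results of these data, so the family was selected on that measured difference. The fissure differences of Slitrk1 are therefore given as a description, with no test.

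The series holds 9 samples of mouse embryos at E11.5, with 3 arrays each from the optic fissure, the centre of the nasal optic cup and the centre of the temporal optic cup. Tissue was cut out by laser, and the label of 1 fissure sample defines that region as cup cells lying up to 5 cell diameters away from the fissure edge. The 3 samples of a region, lettered A, B and C, are called biological replicates by the submitters. Strain, genotype and the number of embryos behind a sample are not given in the sources used here, and no allele or treatment is named, so p-values cover only how far these samples spread, which may be partly technical. Each value is the linear intensity of a probe set, without a detection call, and the 40th percentile of each array (15.7 to 17.5) was used as a line below which a level is hard to tell from the floor of the array.

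Slitrk proteins cross the membrane once and carry leucine-rich repeats outside the cell that resemble those of the Slit guidance proteins. The cytoplasmic tail of most members resembles that of Trk neurotrophin receptors, whereas Slitrk1 has a short tail. The proteins steer neurite outgrowth and organise synapses, where they bind LAR-type receptor phosphatases on the partner neuron. SLITRK6 is the member best known for the eye and ear, since its loss in people causes short sight and deafness.

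Slitrk1 alone stood far above the floor in the fissure and at or near the floor elsewhere, Slitrk4 and Slitrk5 were measurable in all regions with their lowest mean in the fissure, Slitrk2 was dim, and Slitrk3 and Slitrk6 never exceeded the line. The 250 bases upstream of the RefSeq start site of Slitrk1 are shown because this is the member with the marked regional difference and the stretch where a regulator of its transcription could act. They lie at chr14:108914240-108914489 on the minus strand of GRCm38.p6 and are printed 5′ to 3′, and the capitals mark TAAT or its reverse complement ATTA, the core recognised by many homeodomain proteins.

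Slitrk1 upstream region: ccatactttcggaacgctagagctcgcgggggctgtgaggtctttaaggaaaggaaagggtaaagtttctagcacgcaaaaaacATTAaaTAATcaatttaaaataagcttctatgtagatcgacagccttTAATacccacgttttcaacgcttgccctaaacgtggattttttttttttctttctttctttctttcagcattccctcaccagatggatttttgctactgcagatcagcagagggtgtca

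This window holds 3 matches to TAAT on either strand, beginning 166, 160 and 119 bases before the start site, against a mean of 1.26 over 32851 RefSeq windows of the same length, of which 54.9% hold at least 1. It has no TATAAA (12.4% of windows do) and no TAATTA (4.84% do), and its GC content is 40.4% where the median window has 52.4%. RefSeq windows were at hand for 5 of the members. The window of Slitrk6 had 37.2% GC and 3 TAAT matches, and those of Slitrk2, Slitrk3 and Slitrk5 had 57.6% to 74.8% GC and 0 or 1 match. These matches describe the letters only, and no binding was measured.

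Slitrk1, which promotes neurite outgrowth and excitatory synapses, read 153, 187 and 159 on fissure arrays A, B and C. In the nasal cup it read 2.30, 5.20 and 0.9, and in the temporal cup 8.90, 20.1 and 7.30. All 3 fissure arrays were far above all 6 others, and only temporal array B passed its array's 40th percentile outside the fissure. The fissure values were 9.17 to 10.7 times the 40th percentile of their arrays, while the nasal ones were 0.0545 to 0.325 times it. On the log2(intensity + 16) scale, which understates the change of dim genes, the fissure mean stood 3.28 above the nasal and 2.72 above the temporal mean, ranks 6 and 11 of 12773 tested genes. The gene entered the test through its fissure arrays, so that it had to differ. Without overlap, 13.1% of tested genes were higher in the fissure than in nasal and 12.1% than in temporal cup. In dissected tissue, more cells carrying a transcript and more RNA per cell cannot be told apart.

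**Figure D1:**
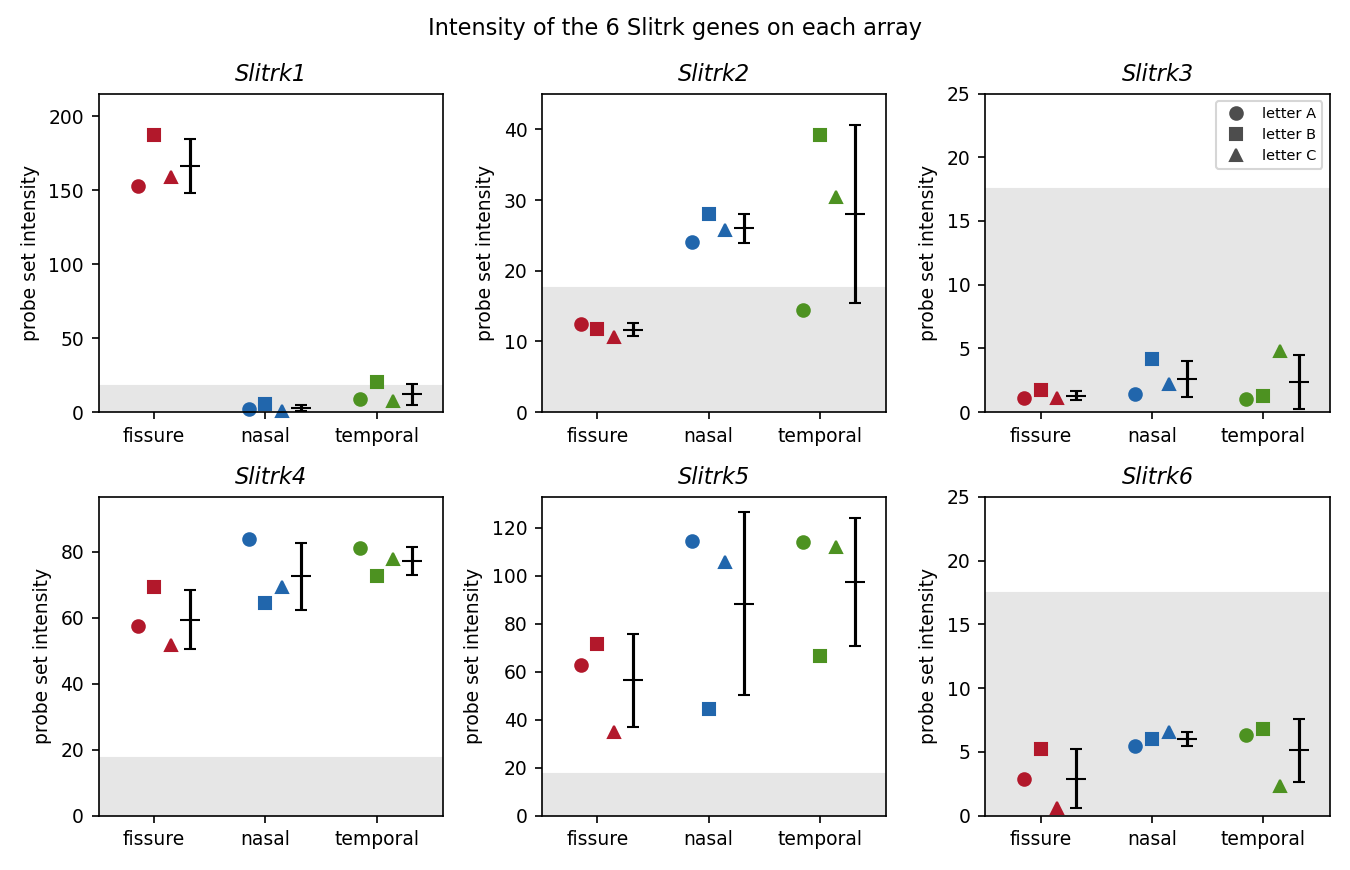
Probe set intensity (linear, y axis) of each Slitrk gene on the 9 arrays by region (x axis), with the letter as the symbol, the mean with SD (n = 3) in black, and shading up to 17.5, the highest 40th percentile of any array. Slitrk1 reads 153 to 187 in the fissure and at most 20.1 elsewhere, Slitrk4 and Slitrk5 lie above the shading on all 9 arrays, and Slitrk3 and Slitrk6 lie inside it.

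Between the other regions Slitrk1 averaged 2.80 ± 2.19 in nasal and 12.1 ± 6.97 in temporal cup (SD, n = 3 each). The 3 temporal values lay above the 3 nasal ones, as they did for 3.71% of tested genes. The log2 difference of nasal against temporal was -0.56 (SE 0.19), which did not pass in limma (unadjusted p = 0.0138, adjusted p = 0.99985). An unadjusted p below 0.05 was seen for 2.91% of all tested genes. Nearly all of the nasal and temporal values of Slitrk1 lie under the line, where a difference need not reflect transcript.

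Slitrk4 and Slitrk5 carry the Trk-like tail, and Slitrk5 is known for its role in striatal circuits. Slitrk4 read 57.4, 69.3 and 51.6 in the fissure, 84.0, 64.4 and 69.2 in the nasal cup and 81.1, 72.7 and 77.9 in the temporal cup. The 3 temporal arrays lay above the 3 fissure arrays, as a like lower level in the fissure did for 9.58% of tested genes, while the nasal values overlapped both. The differences were small: -0.23 (SE 0.16) for fissure against nasal and -0.31 (SE 0.16) for fissure against temporal, with limma adjusted p = 0.490 and 0.329. The further Slitrk4 probe set, at 17.1 to 44.2 over the 9 arrays, gave -0.25 and -0.28 (SE 0.22 each), and its regions overlapped.

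Slitrk5 read 63.0, 71.4 and 34.7 in the fissure, 114.6, 44.5 and 105.9 in the nasal cup and 113.9, 66.7 and 111.9 in the temporal cup. Arrays A and C of the nasal and temporal cup were high, array B of both was low, and the regions overlapped. The log2 differences of -0.49 (SE 0.31) against nasal and -0.66 (SE 0.31) against temporal did not pass (limma adjusted p = 0.466 and 0.302).

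Taken letter by letter, the fissure differences of Slitrk5 were -0.73, 0.53 and -1.27 against nasal and -0.72, 0.08 and -1.33 against temporal for A, B and C. Those of Slitrk4 against nasal were -0.45, 0.09 and -0.33, and letter B again differed from the others. Without the 3 letter B arrays, a setting chosen after seeing the data, Slitrk5 passed in both comparisons at -0.995 and -1.03 (limma adjusted p = 0.0331 and 0.0362), and Slitrk4 did not pass. Fissure array B was about as like the nasal and temporal arrays (r = 0.960 to 0.970 over tested genes) as like fissure arrays A and C (0.971 and 0.964). The other arrays were not compared in this way, so these correlations do not set array B apart. In each region letter B also had the lowest Gapdh ratio of 3-prime to 5-prime signal, a measure of RNA integrity, at 4.93, 4.90 and 4.46 against 6.08 or more on the other arrays, and its part in the Slitrk5 values was not tested.

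**Figure D2:**
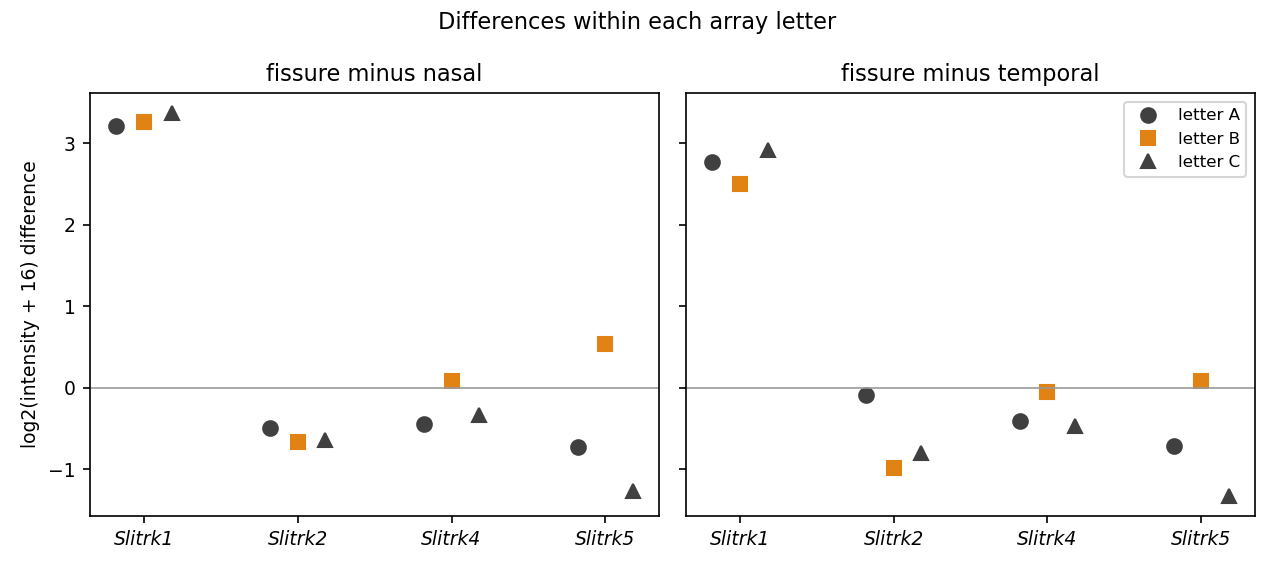
Fissure minus nasal (left) and fissure minus temporal (right) difference of log2(intensity + 16), within each array letter, for the 4 tested Slitrk genes. Slitrk1 lies between 2.49 and 3.37 in every letter, Slitrk2 is below 0 in every letter, and Slitrk5 is below 0 in letters A and C and above 0 in letter B.

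Slitrk2, a member found at excitatory synapses, was dim. It read 12.5, 11.8 and 10.7 in the fissure, 24.1, 28.1 and 25.8 in the nasal cup and 14.4, 39.2 and 30.4 in the temporal cup. Every fissure value lay under the 40th percentile and below all 6 other values. Such a lower fissure level without overlap was seen for 9.45% of tested genes against nasal and 9.58% against temporal. Slitrk2 entered the test only through nasal and temporal arrays, and so had to be lower in the fissure. The log2 differences were -0.60 against nasal and -0.63 against temporal (SE 0.20 each), given here as a description with no test. The second was -0.33 with array weights, -0.35 with both probe sets averaged, -0.44 without temporal array B and -0.87 without temporal array A. The further Slitrk2 probe set read 7.90 to 20.6, was above the line on 1 array and was not tested.

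Slitrk3, which organises inhibitory synapses, read 1 to 4.80 over the 9 arrays, and Slitrk6 read 0.6 to 6.80. Neither passed the 40th percentile on any array, as was so for 21.3% of all genes with a probe set. Both were left out of the test. In a fit without the filter on dim genes their differences between regions ran from -0.23 to 0.07, with limma adjusted p of 0.533 or more. An absence of the transcripts cannot be read from these values.

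Over the family, 4 of 6 members were tested. Slitrk4 and Slitrk5, the members above the line on all 9 arrays, did not pass in any comparison in the limma fit to all 9 arrays, with or without the block, and 0 of these 2 had an unadjusted p below 0.05. Of all tested genes 6.37% passed against nasal, 5.36% against temporal and 0.0470% for nasal against temporal (0.133% with the letter as a block). The share with an unadjusted p below 0.05 was 18.5%, 18.2% and 2.91%. The median log2 difference of the 4 was -0.36, -0.47 and -0.13 for fissure over nasal, fissure over temporal and nasal over temporal, beside 0.04, 0.04 and -4.64e-04 over all tested genes. Those medians include Slitrk1 and Slitrk2, which entered through the regions where they are high, and nothing is read from them. The fissure comparisons share the same fissure arrays and are not independent of each other.

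**Figure D3:**
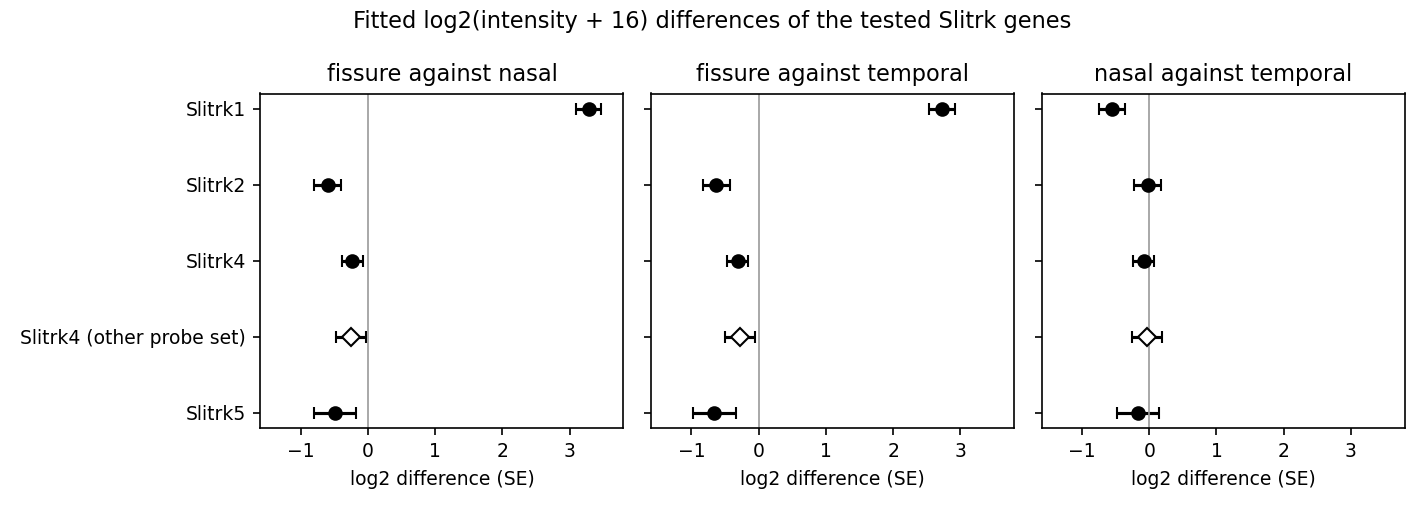
Fitted differences of log2(intensity + 16) with their SE (x axis) for the tested Slitrk genes in the 3 comparisons, filled circles for the main probe set and an open diamond for the further Slitrk4 probe set. Slitrk1 stands at 3.28 and 2.72 in the fissure comparisons, while the other members lie between -0.66 and -0.23 there.

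By order of mean level, Slitrk1 ran fissure, temporal, nasal, with no overlap between neighbours. Slitrk2, Slitrk4 and Slitrk5 ran temporal, nasal, fissure. Of their neighbours in that order, nasal and temporal overlapped for all 3 genes, and nasal and fissure overlapped for Slitrk4 and Slitrk5. Across the 9 arrays, which share regions and letters, the log2 values of Slitrk4 and Slitrk5 correlated at 0.86, and those of Slitrk1 correlated at -0.74, -0.69 and -0.59 with Slitrk2, Slitrk4 and Slitrk5.

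The genomic neighbours of the members were also read. In the RefSeq table of GRCm38.p6, Slitrk1, Slitrk6 and Slitrk5 follow each other on 1 chromosome with 0 protein-coding genes between them, and Slitrk4 and Slitrk2 lie on the X chromosome with 2 between them. Within the first cluster, Slitrk1 was high in the fissure, Slitrk6 was under the line in all regions and Slitrk5 had its lowest mean in the fissure. Gpc5, the glypican gene that follows Slitrk5, was under the line on 8 of the 9 arrays and read 20.0 on fissure array A.

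The genes most like each tested member were named by Pearson correlation of log2 values over the 9 arrays, among the 12772 other tested genes. For Slitrk1 they were Gnai1, a G-protein subunit gene (r = 0.992), Apobec1, a cytidine deaminase gene (0.992), and Rgs2, a regulator of G-protein signalling (0.989). Gnai1 averaged 2697 ± 104 for fissure, 625 ± 75.5 for nasal and 811 ± 157 for temporal arrays, and Apobec1 averaged 83.5 ± 7.14, 3.67 ± 1.12 and 10.2 ± 8.43 (SD, n = 3 each). For Slitrk2 they were Lama1, a laminin chain gene, Tk1, the thymidine kinase gene, and Gfra4 (r = 0.937 to 0.940). For Slitrk4 they were D330022H12Rik, Cmtr2 and Rps15a-ps6 (0.954 to 0.963), and for Slitrk5 Celf4, an RNA-binding protein gene, Rdh11 and Phax (0.945 to 0.958). With this many genes and 9 arrays, high correlations arise readily, and they are given as a description.

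The binding partners of the family were measured in all regions. The LAR-type receptor phosphatase genes Ptprd, Ptprf and Ptprs were above the line on all 9 arrays, and 0 of 3 passed in any comparison in limma, and an unadjusted p below 0.05 was seen for 0 of them. Ptprf read 1969, 1094 and 1817 in the fissure, 1048, 842 and 1394 in the nasal cup and 1185, 992 and 1410 in the temporal cup. The fissure values of Ptprf were the highest within each letter but overlapped the others, at 0.55 (SE 0.25, adjusted p = 0.276) above nasal, and that difference passed once blocked by letter (limma adjusted p = 0.0406), in a fit where 12.4% of all tested genes passed. Ptprd averaged 548 ± 175, 598 ± 22.3 and 591 ± 27.2, and Ptprs 1637 ± 241, 1478 ± 418 and 1640 ± 518 (SD, n = 3 each, in fissure, nasal and temporal cup). For fissure against nasal and against temporal, the log2 differences were -0.16 and -0.15 (SE 0.20 each) for Ptprd and 0.17 and 0.03 (SE 0.26 each) for Ptprs.

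Of 6 other ligands of these phosphatases, 5 were tested, and 0 passed in any comparison in limma. An unadjusted p below 0.05 was seen for 1 of them, against temporal, where 18.2% of all tested genes had it. Of 5 genes for liprin-alpha proteins and Trio, which act inside the partner cell, 4 were tested and 0 passed in limma without the block. An unadjusted p below 0.05 was seen for 1, 0 and 0 of them, and for 18.5%, 18.2% and 2.91% of all tested genes. Ppfia4 passed with the block in both fissure comparisons (limma adjusted p = 0.0117 and 0.0459), where 12.4% and 12.1% of all tested genes did. It read 29.9, 18.1 and 62.0 in the fissure, 17.2, 4.60 and 14.4 in the nasal cup and 17.2, 5.60 and 30.8 in the temporal cup. Ppfia4 was thus near the floor, and no nasal array was above the line, so it entered the test without that region. Slit2 was the only tested Slit gene of 3, at 1165 ± 269, 1434 ± 313 and 1566 ± 298 in fissure, nasal and temporal cup (SD, n = 3 each), and passed only against temporal with the block (-0.43, adjusted p = 0.0447, against 0.331 without it). Of 4 measured genes for Trk receptors and neurotrophins, 3 were tested and Ntrk2, the receptor of the growth factor BDNF, rose in the fissure. It read 249, 226 and 271 there, above at most 153 in the nasal and 140 in the temporal cup, with log2 differences of 0.989 and 0.999 (SE 0.20 each, limma adjusted p = 0.0127 and 0.0131). Those calls were lost without fissure array A or C, and against temporal also without temporal array A or C (adjusted p = 0.0503 to 0.0634).

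Other membrane proteins with leucine-rich repeats went both ways. Of 34 listed genes, 32 were measured and 23 tested. Against nasal 3 rose and 1 fell, and against temporal 4 rose and 1 fell, where 4.41% of all tested genes rose and 1.97% fell against nasal, and 3.47% and 1.89% against temporal. The list's median log2 differences were 0.08 and 0.07, beside 0.04 and 0.04 over all tested genes. Flrt2, an adhesion and guidance protein gene, read 6831, 6555 and 6703 in the fissure and 1716 to 2492 elsewhere. Lrrn1, a neuronal repeat protein gene, read 635, 890 and 624 in the fissure and 156 to 244 elsewhere. Its log2 differences of 1.92 and 1.74 (SE 0.20 each, limma adjusted p = 2.10e-04 and 4.44e-04) dropped to 0.54 and 0.59 and did not pass (adjusted p = 0.0912 and 0.0710) when its 3 probe sets were averaged. Flrt1 rose by 1.29 and 1.34. With the letter as a block 4 and 5 rose, since Lrig3 was added in both, at 0.61 and 0.69 (limma adjusted p = 0.0257 and 0.0164, against 0.0733 and 0.0509 without it). Lingo2, named after its value was seen, is counted among the 4 that rose against temporal, at 0.77. It read 19.3, 18.9 and 22.5 in the fissure and 1.60, 3.10 and 12.4 in the temporal cup. It was above the line on 4 arrays, the fissure ones and nasal array A. Lingo2 thus entered the test through the region where it is high, and its difference is given as a description with no test.

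Lrrc4c, whose protein binds netrin-G1, fell in the fissure. It read 42.7, 44.2 and 54.7 there, 178, 94.3 and 246 in the nasal cup and 153, 119 and 232 in the temporal cup. The fissure values lay below all others, at log2 differences of -1.49 and -1.50 (SE 0.30 each, limma adjusted p = 0.0124 and 0.0131). Without fissure array A neither passed (adjusted p = 0.0629 and 0.0657), and without nasal array A the first did not (0.0561). With its probe sets averaged both passed, at the smaller differences of -0.78 and -0.75.

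Among neurexin, neuroligin and calsyntenin genes, which code for other synapse organisers, 7 of 8 measured were tested. Nrxn3 fell in both fissure comparisons (-1.20 and -1.39, SE 0.30 each, limma adjusted p = 0.0371 and 0.0198) and Nlgn1 against temporal (-1.32, SE 0.31, adjusted p = 0.0305). The differences kept their direction without any single array, but the calls did not all hold. That of Nrxn3 was lost against nasal without fissure array A or C, nasal array B or C or temporal array A (-0.91 to -1.20, adjusted p = 0.0504 to 0.154), and against temporal without fissure array A or C or temporal array B or C (-1.10 to -1.40, 0.0626 to 0.0895). That of Nlgn1 was lost without fissure array A or C or any temporal array (-1.06 to -1.40, 0.0553 to 0.144). With a pseudocount of 1 none of the 3 calls passed (adjusted p = 0.0796, 0.0576 and 0.0712). The calls of Nrxn3 against nasal and of Nlgn1 were also lost without the filter on dim genes (limma adjusted p = 0.0622 and 0.0534). Both were lost too with only the 2 regions in the fit (0.0618 and 0.0578). With all probe sets tested, that of Nrxn3 against nasal was lost (0.0551). Nrxn3 was not tested with its probe sets averaged. For nasal against temporal, 0 genes of the related lists other than the Slitrk family passed in limma, with or without the block. An unadjusted p below 0.05 was seen for 2 of them, the neurotrophin gene Bdnf and Nlgn1, and for 2.91% of all tested genes.

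**Figure D4:**
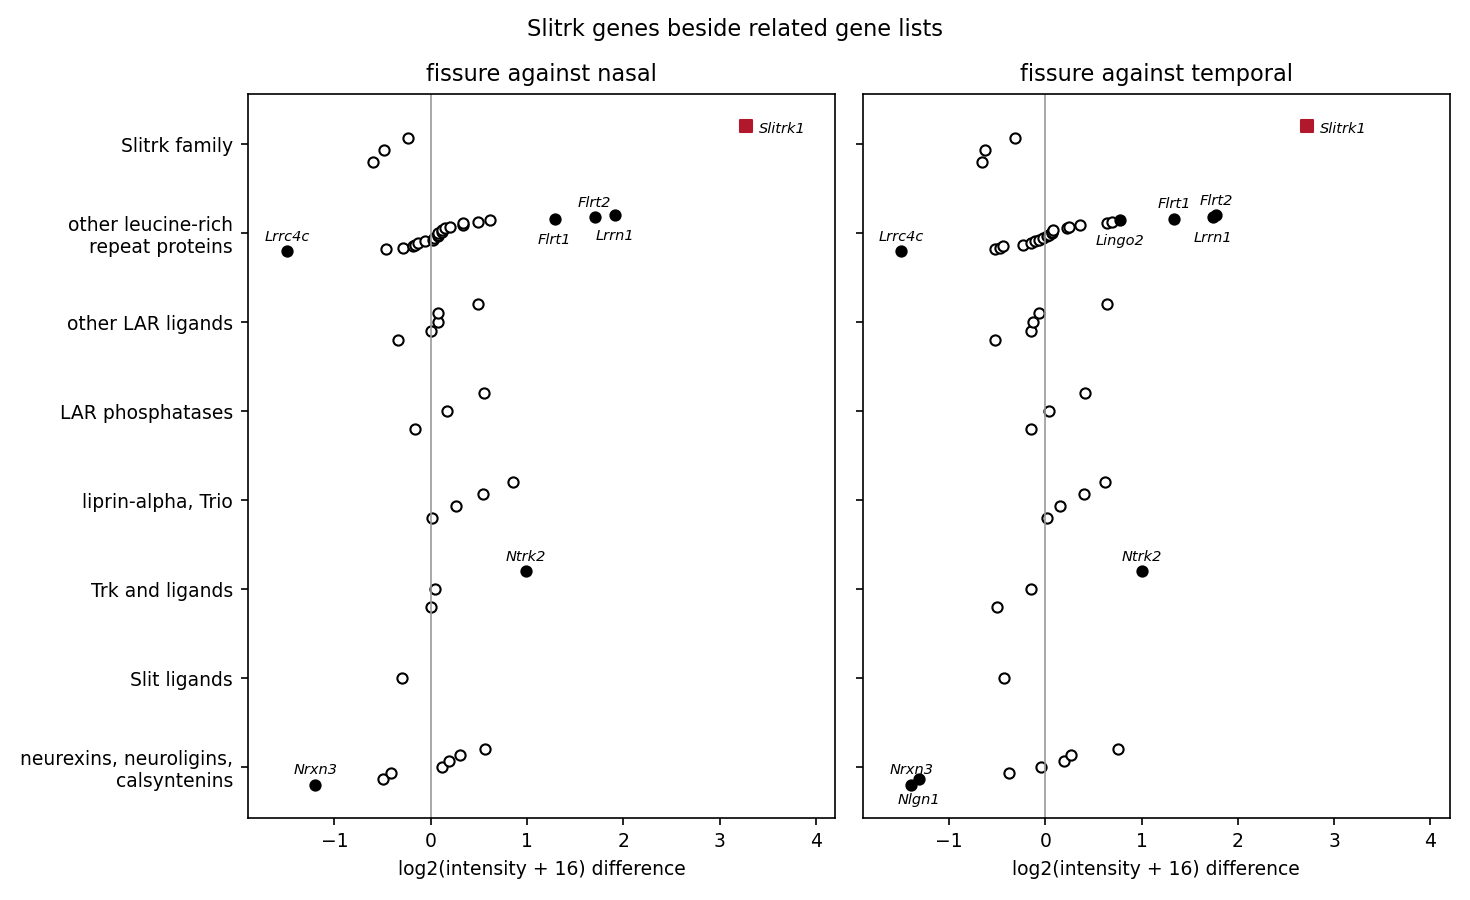
Difference of log2(intensity + 16) of each tested gene (x axis) by list (y axis) for fissure against nasal (left) and fissure against temporal (right), with filled circles for an adjusted p below 0.05, open circles for the others, and a red square for Slitrk1, which has no test. A gene on more than 1 list is drawn on each. Lingo2, filled on the right, entered the test through its fissure arrays. Slitrk1 lies furthest to the right, Flrt1, Flrt2 and Lrrn1 lie between 1.29 and 1.92, and the other Slitrk genes lie left of 0.

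Markers of the captured tissue and of other cells were read beside these values. The counts in this and the next paragraph stand beside 4.41% of all tested genes that rose and 1.97% that fell against nasal. Against temporal these shares were 3.47% and 1.89%. With the block, which adds calls over all genes, 12.4% and 12.1% of tested genes passed. All 9 measured retinal progenitor markers were tested, and their summed intensity ran from 6599 to 7018 on fissure, 9959 to 10606 on nasal and 9612 to 10562 on temporal arrays. Of these, 3 fell and 0 rose in each fissure comparison in limma, namely Pax6 (1565 ± 184 in the fissure against 3199 ± 493 and 2835 ± 45.6), Fgf15 (271 ± 49.2 against 1749 ± 214 and 1694 ± 222; SD, n = 3 each) and Hes5. Lhx2 rose with the block alone (limma adjusted p = 0.0158 and 0.0219). The summed intensity of 11 neuronal markers was 376 to 540, 360 to 431 and 368 to 450, with Snap25 under the line on all arrays. Of the 9 tested neuronal markers, 0 rose and 1 fell in the fissure against nasal and 0 passed against temporal in limma, and their sums overlapped between all regions. With the block Syt1 also passed as higher against nasal (limma adjusted p = 0.0222).

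Macrophage and leukocyte markers moved with Slitrk1: all 10 tested of 11 measured rose in both fissure comparisons, where 4.41% and 3.47% of all tested genes rose. Their sums were 2820 to 3350 in the fissure against 494 to 777 and 389 to 660. C1qa and C1qc were above the line on 3 arrays, all from the fissure, so they entered the test through that region and had to rise there. Sums of 8 lens markers were 2369 to 3440 against 641 to 670 and 587 to 1193, with Crygb and Foxe3 under the line. Maf was the largest part of the fissure sums, averaging 1304 ± 348 against 246 ± 58.5 and 280 ± 61.4 (SD, n = 3 each). Prox1 averaged 70.3, 71.4 and 72.5 and did not pass. Of 6 tested lens markers, 4 rose against nasal and 3 against temporal (5 with the block). Crybb1, counted among the 4, was above the line on no nasal array, so it entered the test without that region. The sums of 4 optic stalk and ventral forebrain markers were 593 to 766 against 56.3 to 78.0 and 64.3 to 87.3, with Nkx2-1 and Nkx2-2 under the line. That difference lay in Vax1, at 629 ± 91.7 against 25.4 ± 15.8 and 40.7 ± 13.6 (SD, n = 3 each). Shh, the only other one above the line, averaged 25.5, 29.0 and 27.1 and did not pass. Sums of 11 periocular mesenchyme markers were 1196 to 2440 against 823 to 1254 and 653 to 1398. Of the 11 mesenchyme markers, 3 rose and 2 fell against nasal and 4 rose and 2 fell against temporal, and 5 rose in each with the block. Among fissure arrays, array B had the highest Slitrk1 value and the highest lens sum, and the lowest macrophage and mesenchyme sums. Of the other lists, pigment epithelium (8 tested) had 1 higher and 3 lower in each fissure comparison, and neural crest (4 tested) 1 and 1. Endothelium (6 tested) and erythroid cells (5 tested) had 0. Surface ectoderm (5 tested) had 2 lower in each, and Cdh1, above the line on the 3 fissure arrays only, higher against nasal. With the block 5 pigment markers were lower and 2 erythroid ones higher in each, and Cdh1 was also higher against temporal. The part of these cells in the Slitrk values was not tested.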

How the data were processed

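The authors deposited single-channel Affymetrix probe set intensities on a linear scale (45101 probe sets, 9 arrays). The sources used here do not say how probes were summarised or arrays scaled. The trimmed mean was 150.0 on every array, so no scaling was added. Symbols came from the platform annotation, which can be old (34945 probe sets with 1 symbol, 932 with several, 9160 unnamed, 64 controls), and 0 differed from RefSeq (GRCm38.p6). Upstream sequences are from RefSeq. Members and lists were chosen with earlier results of these data known.

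The log2(intensity + 16) values of each gene's brightest probe set were used. Genes had to exceed the 40th percentile of the array on 3 or more of the 9 arrays, and 12773 did so. Region means were estimated from the 9 arrays together in limma 3.58.1 (R 4.3.3; lmFit, eBayes), the 3 pairs of regions were compared, and p-values were adjusted by Benjamini-Hochberg over the tested genes, with a threshold of 0.05. The step was tested on simulated data whose arrays varied independently. They had no shared letter effect, so arrays that deviate together by letter were not covered. To check for pairing, deviations from region means were correlated: the 9 same-letter pairs gave 0.166 to 0.486 and the 18 others -0.438 to 0.218. The main fit did not include the letter, so p-values given without mention of the block ignore this pairing. An alternative fit added the letter as a block, from the data and not from the labels. Blocked values stand beside related and marker lists whose calls they change.

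Named genes are the members, the LAR-type phosphatases, per related list and comparison up to 4 passing genes of smallest p, and the 3 genes most like each tested member. Ppfia4, Slit2, Lrig3, Lhx2 and Syt1 are named for calls made only with the block, Gpc5 as a neighbour and Bdnf for its unadjusted p. The other marker genes are named after their values were seen, for their part in a sum or for how they entered the test. Alternatives were the filter, scaling, pseudocount, probe set summary, variance model, array weights, block, regions fitted and omission of single arrays. The number of arrays limits precision.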

Additional observations from a re-analysis of the deposited data

How the results depend on the processing

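Slitrk1 kept its direction in both fissure comparisons under every alternative that tested it, from 2.51 to 5.62 against nasal and from 2.18 upwards against temporal. This is a description only, because the family was selected on that difference. Without the 3 letter B arrays it was above the 40th percentile on too few arrays to be tested. The other tested members stayed below 0 against both regions under every alternative run. For Slitrk2 nothing is read from this, since it entered the test only through nasal and temporal arrays. The number of Slitrk genes under the threshold is given only to show how it moves, because it counts Slitrk1, on which the family was selected, and Slitrk2, which the filter let in through the regions where it is high. It was 1 in each fissure comparison, 2 and 3 with array weights, 2 against temporal with the letter as a replicate block, and 1 to 2 leaving out single arrays. Among these, Slitrk4 and Slitrk5 passed against temporal with array weights (limma adjusted p = 0.0339 and 0.0356).

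Over all genes, 814, 685 and 6 passed for fissure over nasal, fissure over temporal and nasal over temporal. With array weights the counts were 2669, 3133 and 10, with the replicate block 1590, 1541 and 17, and leaving out single arrays they ran from 368 to 1174, 328 to 1099 and 2 to 8. For nasal against temporal 3 passed with only the 2 regions in the fit, and 3 without the letter B arrays. Other scalings moved the median of all genes by less than 0.1 on the log2 scale.

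Differences near 0 changed sign. For nasal against temporal Slitrk2 went from -0.02 to 0.22 with array weights, 0.11 with probe sets averaged, 0.0033 with a pseudocount of 1 and 0.12 without the letter B arrays, and ran from -0.27 to 0.16 leaving out single arrays, where Slitrk5 ran from -0.38 to 0.18. Ptprs against temporal was -0.12 with probe sets averaged and -0.19 to 0.26 leaving out single arrays, and Ptprd ran from -0.22 to 0.0045 against nasal and -0.18 to 0.021 against temporal. The cause of these changes was not tested. Signals near the floor limit what can be said of Slitrk2, Slitrk3 and Slitrk6.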
